A study of Mus musculus with 4 samples.

Results

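The data concern the immune and vascular cells of the tibia fracture callus, the repair tissue that forms around a broken bone, in mice with serum-induced arthritis (library RA_7d) and in vehicle-treated mice (library control_7d) at 7 days post fracture (dpf). Haematopoietic cells were taken as cells with at least 1 UMI of *Ptprc*, the pan-leukocyte antigen CD45, and at most 10 UMIs of *Col1a1*, a type I collagen chain. Endothelial cells were taken as cells with at least 2 UMIs of *Pecam1* and at least 1 of *Cdh5*, both junction proteins of vessel lining, and 0 of *Ptprc*. A UMI stands for 1 captured mRNA molecule. Of 15899 cells that passed the quality limits in the 7 dpf libraries, 6891 met one of the gates, 4739 haematopoietic cells (2813 from control_7d and 1926 from RA_7d) and 2152 endothelial cells (910 and 1242). All animals were C57BL/6J wild-type mice of 3 months, male per the methods of the study. RA mice were injected with K/BxN serum, which transfers arthritis through autoantibodies, and control mice with vehicle. Libraries at 4 dpf (control_4d and RA_4d) are given alongside. Each library came from 1 pool of calluses (4 per the series description and 3 per the methods of the study), scraped from the periosteal surface and digested with collagenase, and 10000 cells were loaded. With 1 library a side there are no replicates, so no comparison between RA and control could be tested, and the library and the condition cannot be told apart. Serum transfer models the antibody-driven effector phase of arthritis.

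As background, macrophages are the most abundant leukocytes of an early callus, where they clear debris and dead red cells, and some cells of the same myeloid lineage fuse into osteoclasts, which resorb bone and calcified cartilage with proteases and acid. T cells and natural killer (NK) cells are lymphocytes that release cytokines and cytotoxic granules. Endothelial cells sprout into the callus behind non-dividing tip cells. Leukocytes enter tissue from blood mostly through venules, whose endothelium carries adhesion molecules such as P-selectin, and lymphatic vessels drain it.

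The levels below are UMIs summed over the gated cells of a library and scaled to a total of 1000000 (CPM). Ratios are log2 of RA over control at 7 dpf with 1 CPM added to each side unless 4 dpf is named. A gene is said to have risen or fallen when this log2 ratio was at least 1 or at most −1, a 2-fold difference. Intervals are 95% intervals of the ratio without the added CPM, or of a share, and cover counting error only. Each UMI is counted at the 3′ end of a transcript, so levels are compared between libraries and not between genes. The haematopoietic sums held 36151156 UMIs in control_7d and 23721578 in RA_7d, and the endothelial sums 14490479 and 19074834. The median depth of a haematopoietic cell was 11054 UMIs in control_7d and 11266.5 in RA_7d, and of an endothelial cell 13934.5 and 13920.5. The median mitochondrial share was between 2.15% and 2.60% in the 4 sets of cells, and the libraries control_7d and RA_7d had 31 cell barcodes in common. The gates were checked against markers they did not use. The 12 haematopoietic marker genes that the gate did not use summed to 9428 CPM in the haematopoietic cells of control_7d and 9145 in those of RA_7d, against 330 and 250 in the endothelial cells. The 14 endothelial marker genes summed to 4682 and 4736 CPM in endothelial cells and to 187 and 311 in haematopoietic cells. Mesenchymal genes, which include abundant collagens, also reached the endothelial cells, where 29 of them summed to 9214 and 10304 CPM.

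At 7 dpf haematopoietic cells made up a smaller and endothelial cells a larger part of the kept cells in RA_7d than in control_7d. The haematopoietic share was 36.6% in control_7d (exact Clopper-Pearson interval 35.6 to 37.7) and 23.4% in RA_7d (22.5 to 24.4), a ratio of 0.639 (0.603 to 0.678). The endothelial share was 11.9% (11.1 to 12.6) and 15.1% (14.3 to 15.9), which is 1.27 times as much (1.17 to 1.39). The corresponding ratios at 4 dpf were 0.991 and 0.971, with intervals that span 1. Cells with over 10 *Col1a1* UMIs and other mesenchymal markers were 29.8% and 35.4%, and a share among a fixed number of loaded cells says nothing of how many a callus held.

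The makeup of both compartments also differed. Among haematopoietic cells, mononuclear phagocytes (at least 2 UMIs of *Csf1r*, *Adgre1* and *Cd68*) were 81.6% in control_7d and 69.8% in RA_7d, a ratio of 0.855. T and NK cells (at least 2 UMIs of *Cd3d*, *Cd3e*, *Cd3g* and *Nkg7*, no *Csf1r* or *Adgre1*) were 150 cells or 5.33% in control_7d and 256 cells or 13.3% in RA_7d, a ratio of 2.49 (2.03 to 3.07). The ratio for T and NK cells at 4 dpf was 3.41, from 2.35% to 8.02%. Cells with a UMI of *Flt3* or *Zbtb46*, genes of dendritic cells, were 9.67% and 12.05%, and neutrophils were 12 and 8 cells, too few to describe. Among endothelial cells, those with a UMI of *Selp* or *Ackr1*, genes of venules, were 34.9% in control_7d and 49.5% in RA_7d, a ratio of 1.42 (1.24 to 1.63). Cells of the lymphatic gate, with a UMI of *Prox1* or *Mmrn1*, genes of lymphatic endothelium, were 16.7% and 23.3%, a ratio of 1.40 (1.14 to 1.71). Genes of blood vessels were also found in this gate, as given below. Cells of the arterial gate (at least 2 UMIs of *Gja4*, *Gja5* and *Sox17*) were 29.9% and 18.4%, and the remaining capillary and other cells 18.5% and 8.70%. At 4 dpf the venular share was 48.3% and 53.2% and the lymphatic share 11.8% and 18.2%, so that the lowest venular share of the 4 libraries was that of control_7d. Cycling cells, with at least 2 UMIs of *Mki67* and *Top2a*, were 14.5% of the endothelial cells of control_7d and 6.76% of those of RA_7d (132 and 84 cells), a ratio of 0.466 (0.350 to 0.618), against 19.9% and 17.7% at 4 dpf. Cycling cells among haematopoietic cells were 7.57% and 7.42% at 7 dpf.

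**Figure D1:**
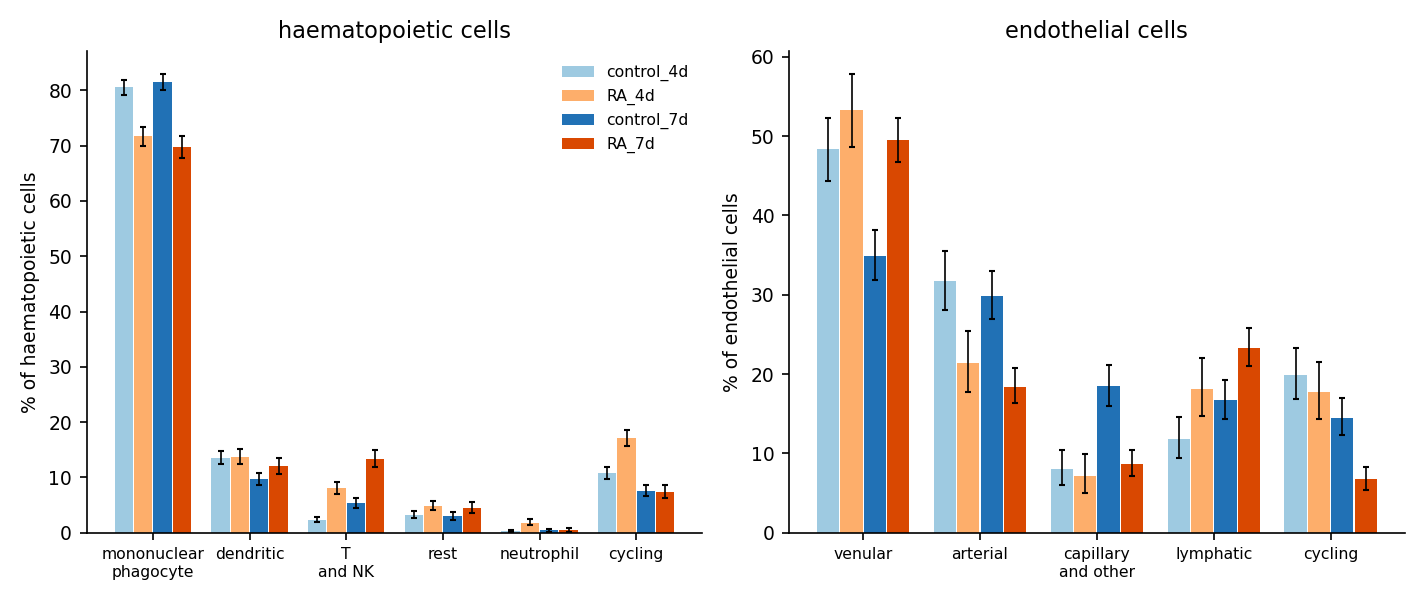
Shares of subsets in each library at 4 and 7 dpf, in percent of the haematopoietic or endothelial cells, with bars for exact 95% intervals that cover counting error only. T and NK cells are higher in RA at both times, and cycling endothelial cells are lower in RA_7d than in the other 3 libraries.

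The subsets are gates on a few genes, and some held genes of other cells. The dendritic gate held *Ctsk*, an osteoclast protease, at 578 CPM in control_7d and 27.6 CPM in RA_7d. The T and NK gate held *Ctsg*, a granule protease of the neutrophil lineage, at 98.7 and 235 CPM. The lymphatic gate held *Selp* at 142 and 540 CPM and *Vwf*, a clotting factor of blood vessel endothelium, at 132 and 551 CPM. In RA_7d both lay above their levels over all endothelial cells, 508 and 403 CPM. The share and the values of this gate are therefore not those of lymphatic cells alone. Scrublet, a doublet caller, marked 62 haematopoietic cells in either library and 36 and 61 endothelial cells.

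In haematopoietic cells 8232 genes had enough UMIs to be compared, with a median log2 ratio of 0.01. In either compartment a gene needed a mean of at least 10 CPM over both 7 dpf libraries. A gene could therefore pass through its higher library alone, as *Klra8* did (5.86 CPM in control_7d and 35.6 in RA_7d). Of these 163 rose (1.98%) and 23 fell (0.279%). A gene was called a compartment's own when its level there was at least 25% of its highest level among haematopoietic, endothelial and mesenchymal cells. Of the 163 rises 99 were of own genes, 51 of genes highest in endothelial cells and 13 of genes highest in mesenchymal cells, and of the 23 falls 22 were of own genes. The largest rises of own genes were led by genes of T and NK cells (*Klra8*, *Klra4*, *Il2rb*, *Ikzf2*, *Camk4*, *Tbx21*, *Txk*), and the largest falls by genes of osteoclasts (*Mmp9*, *Ctsk*, *Acp5*, *Atp6v0d2*). Among them *Camk4* and *Ctsk* had their highest level in mesenchymal cells. RA_7d had the highest level of the 4 libraries for 155 of the 163 rises and the lowest for 21 of the 23 falls, counts that include the libraries by which these genes were chosen.

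Osteoclast genes had the largest falls of the haematopoietic compartment. *Mmp9*, a matrix metalloproteinase of osteoclasts and neutrophils, stood at 152 CPM in control_4d, 223 in RA_4d, 235 in control_7d and 15.5 in RA_7d. Its log2 ratio was −3.84 at 7 dpf (−4.07 to −3.77), 15.1-fold lower in RA, and 0.55 at 4 dpf. *Ctsk*, cathepsin K, the collagenase of the resorption space, had 356, 432, 554 and 91.0 CPM in the same order (−2.59, −2.67 to −2.54). Its level was higher still in mesenchymal cells, and the part of their RNA here was not tested. For both genes RA_7d stood below the other 3 libraries. *Acp5*, tartrate-resistant acid phosphatase, had 289, 318, 422 and 118 CPM (−1.83). *Atp6v0d2*, a proton pump subunit needed for fusion of precursors, had 84.5, 84.2, 118 and 39.9 CPM (−1.54). *Ocstamp*, another fusion protein, had 11.6, 19.2, 21.7 and 4.72 CPM (−1.99). These 5 were the members that fell among 13 measured genes of an osteoclast list, which had a median of −0.89 at 7 dpf and 0.14 at 4 dpf. The others did not reach the fold, with *Src* at −0.97, *Dcstamp* at −0.89, *Nfatc1*, the master transcription factor of the lineage, at −0.59, *Tnfrsf11a*, the receptor RANK, at −0.02, and *Car2* at 0.50.

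The osteoclast transcripts sat in few cells. Cells with at least 20 *Ctsk* UMIs, a limit set after the values were seen, were 89 of 2813 haematopoietic cells in control_7d (3.16%, 2.55 to 3.88) and 12 of 1926 in RA_7d (0.623%, 0.322 to 1.09), 0.197 times as much (0.0981 to 0.361). The corresponding shares at 4 dpf were 2.55% in control_4d and 4.32% in RA_4d, a ratio of 1.69 (1.27 to 2.27). The cells past the limit held 94.2% of the *Ctsk* UMIs of control_7d and 65.1% of those of RA_7d. Without them *Ctsk* stood at 34.7 and 32.1 CPM, *Acp5* at 118 and 106 CPM and *Mmp9* at 21.9 and 10.1 CPM, and the osteoclast list had a median of −0.15 with 1 member of 13 past the fold downwards. Since *Ctsk* itself chose these cells, its levelling without them is a description. Inside them *Acp5* stood at 4360 CPM in control_7d and 1274 in RA_7d and *Mmp9* at 2986 and 532 CPM, the RA values resting on 12 cells. How far the number of such cells and their RNA per cell each make up the difference was not tested. With each cell thinned to 4000 UMIs, an *Mmp9* UMI was found in 4.80% of haematopoietic cells of control_7d and 2.13% of those of RA_7d, and in 2.20% and 0.0805% of endothelial cells. Free RNA, doublets and endothelial expression were not told apart there.

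Genes of T and NK cells rose together in the sums. Of 17 measured members of the list 14 rose and none fell, with a median of 1.19 at 7 dpf and 1.14 at 4 dpf. The list held 32 genes, and members low in control_7d could pass the filter through RA_7d alone. *Lck* did so, at 6.36 and 15.8 CPM (1.19). Summed over all 32 genes, the level was 189 CPM in control_4d, 337 in RA_4d, 361 in control_7d and 772 in RA_7d. *Nkg7*, a granule protein of cytotoxic lymphocytes, stood at 15.1 CPM in control_4d, 49.1 in RA_4d, 23.9 in control_7d and 66.4 in RA_7d (1.44, 1.35 to 1.60). *Gzma*, granzyme A, had 19.3, 46.8, 37.8 and 100.2 CPM (1.38), and *Trbc1*, a T cell receptor constant chain, 4.81, 12.1, 12.8 and 36.5 CPM (1.44). *Klra8*, an activating receptor of NK cells, had 3.04, 6.51, 5.86 and 35.6 CPM (2.42), and *Il2rb*, the IL-2 and IL-15 receptor β chain, 9.27, 29.4, 22.7 and 84.7 CPM (1.85). *Ikzf2*, encoding Helios, a transcription factor of regulatory T and NK cells, had 7.65, 19.7, 25.1 and 92.9 CPM (1.85). For each of these genes both RA libraries stood above the control library of their time point. *Il7r* at −0.29, *Cd4* at 0.14 and *Cd28* at 0.99 did not reach the fold. Inside the T and NK gate the same 17 genes had a median of 0.12 with 1 past the fold, and *Nkg7*, which the gate uses, stood at 593 CPM in control_7d and 666 in RA_7d. In the 84 and 86 cells that met no gate the list had a median of 1.13 with 10 of 17 past the fold. The parts of cell share and of level per cell in the sums were not tested. *Cd3d* was found in 2.63% of thinned haematopoietic cells of control_7d and 5.56% of RA_7d, and in 0 of 910 and 0 of 1242 thinned endothelial cells, a gate without *Ptprc*, which allows a share of cells with a UMI of up to 0.330% and 0.242% at this depth. *Ctsg* rose in the sums from 6.92 to 35.1 CPM (2.19), but 5 cells held 76.4% of its UMIs in control_7d and 6 cells 99.4% in RA_7d, and without cycling cells it was at 1.64 CPM in control_7d with no UMI in RA_7d.

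**Figure D2:**
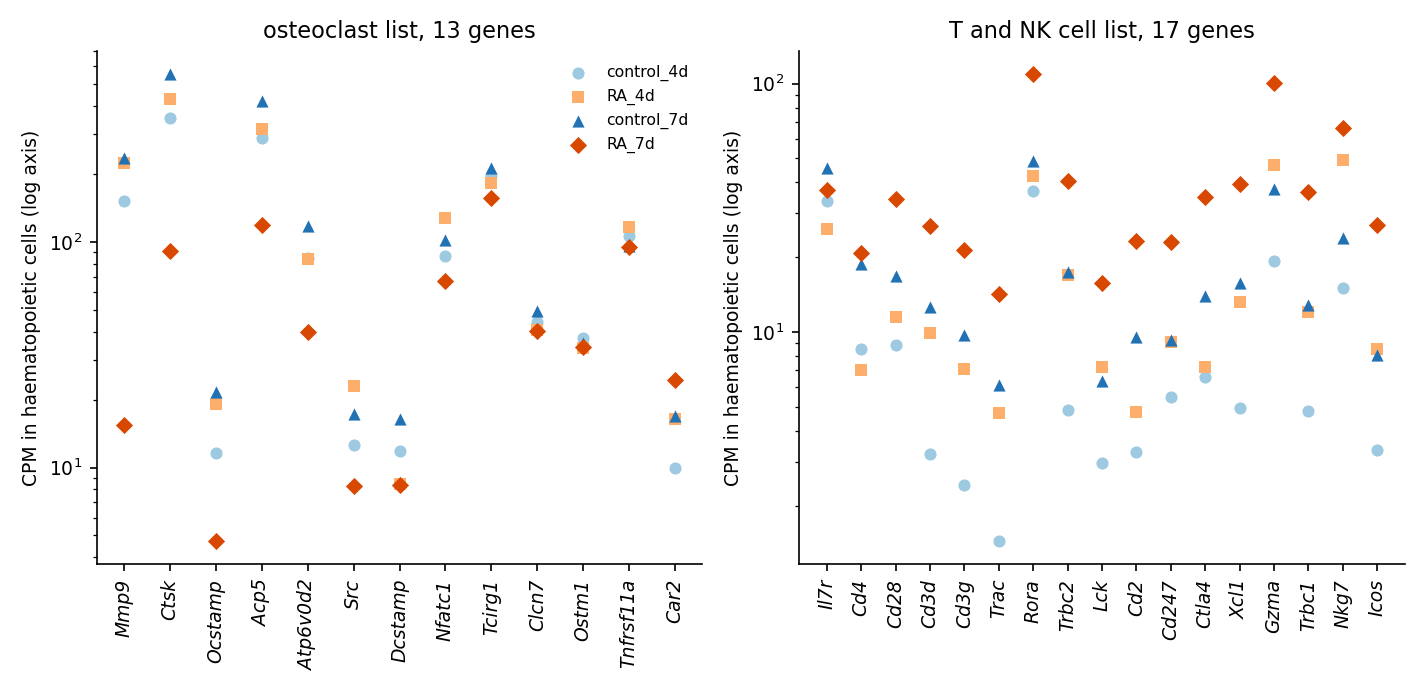
Level in CPM (log axis) of each measured gene of the osteoclast list (left, 13 genes) and the T and NK cell list (right, 17 genes) in haematopoietic cells, 1 point for each of the 4 libraries, with genes ordered by their log2 ratio at 7 dpf. RA_7d lies far below the other 3 libraries for *Mmp9*, *Ctsk* and *Acp5*, and above them for most T and NK cell genes but not for *Il7r*.

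Monocyte-attracting chemokines rose in haematopoietic cells. *Ccl7* stood at 282 CPM in control_4d, 301 in RA_4d, 103 in control_7d and 325 in RA_7d (1.65, 1.60 to 1.72), and *Ccl8* at 1322, 600, 651 and 1786 CPM (1.45, 1.43 to 1.48). For *Ccl7* control_7d stood below the other 3 libraries, and for *Ccl8* the ratio at 4 dpf was −1.14. *Ccl2* rose from 147 to 321 CPM (1.12) and *Ccl4* from 122 to 259 CPM (1.08). Inside the phagocyte gate *Ccl7* had 120 and 426 CPM (1.82), *Ccl8* 764 and 2317 CPM (1.60) and *Ccl2* 169 and 420 CPM (1.31). *Ccl5*, a chemokine of T and NK cells, had 84.4, 148, 120 and 422 CPM (1.80) in the sums, and 1886 and 3008 CPM inside the T and NK gate (0.67). Of 23 measured chemokine and cytokine genes these 5 rose and none fell, with a median of 0.48. *Ccl3* at 0.86, *Cxcl2* at 0.61, *Tnf* at 0.61, *Il1b* at 0.38 and *Pf4* at −0.54 were members that did not reach the fold. Among 21 immediate early genes, which stress and tissue digestion also switch on, 3 rose (*Egr1* from 40.2 to 109 CPM, *Egr2* and *Btg2*) with a median of 0.42, and their part in the chemokine difference was not tested. Of 19 NF-κB target genes none rose or fell (median 0.27).

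Genes that handle haem and iron, set free when macrophages digest red cells, split in direction. *Hmox1*, haem oxygenase 1, which opens the haem ring, stood at 1503 CPM in control_4d, 1158 in RA_4d, 1620.5 in control_7d and 595 in RA_7d (−1.44, −1.47 to −1.42). *Slc40a1*, ferroportin, the iron exporter, had 34.1, 40.8, 98.6 and 36.0 CPM (−1.43), so that control_7d stood above the other 3 libraries. *Gclm*, a subunit of the enzyme that makes the precursor of glutathione, fell from 181 to 90.04 CPM, just past the fold. In the other direction *Cd163*, the scavenger receptor for haemoglobin, had 37.6, 24.7, 6.53 and 30.7 CPM (2.07, 2.02 to 2.45), with control_7d below the other 3. Inside the phagocyte gate *Hmox1* had 1879 and 762 CPM (−1.30), *Slc40a1* 115 and 44.5 CPM (−1.35) and *Cd163* 7.66 and 38.4 CPM (2.18). Of 17 measured haem and iron genes 2 rose and 2 fell, with a median of −0.12, and the ferritin chains *Fth1* and *Ftl1* were at −0.56 and −0.46. An *Hmox1* UMI was present in 69.2% of thinned haematopoietic cells of control_7d and 55.4% of RA_7d, against 36.6% and 34.02% of endothelial cells.

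Among 19 measured macrophage genes of the alternative or tissue-resident kind 3 rose and 1 fell, *Arg1*. Of these genes 13 lay above 0, with a median of 0.30 at 7 dpf and −0.77 at 4 dpf. *Folr2*, a folate receptor of resident macrophages, had 157, 80.4, 79.7 and 166 CPM in control_4d, RA_4d, control_7d and RA_7d (1.05), and *Clec10a*, a galactose lectin, 79.1, 64.0, 33.3 and 100.04 CPM (1.56). *Arg1*, arginase 1, had 291, 62.0, 89.8 and 36.1 CPM (−1.29 at 7 dpf and −2.21 at 4 dpf), lower in the RA library at both times. Outside this list, *Fabp5*, a fatty acid carrier, had 1352, 676, 1407 and 617 CPM, or −1.19 on the log2 scale at 7 dpf, with RA_4d again below control_4d. *Spp1*, osteopontin, at 1618 and 908 CPM (−0.83), *Gpnmb* at −0.90 and *Mrc1* at 0.48 did not reach the fold. Outside these groups, *Ifitm1* (207 and 70.7 CPM, −1.54), *Pde4dip* (−1.03) and *Chchd10*, a mitochondrial protein (55.6 and 13.4 CPM, −1.97), were among the largest falls. *Chchd10* stood at 543 CPM in the *Ctsk*-rich cells of control_7d, and at 17.9 and 12.2 CPM in control_7d and RA_7d without such cells. The 7 measured MHC class II genes, which present antigen, ranged above 0 without reaching the fold (median 0.38, against −0.51 at 4 dpf), and their median was −0.48 with the subsets weighted equally. Of 31 interferon-stimulated genes 1 rose, *Iigp1*, which was not an own gene of these cells, and 26 lay below 0 (median −0.20).

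**Figure D3:**
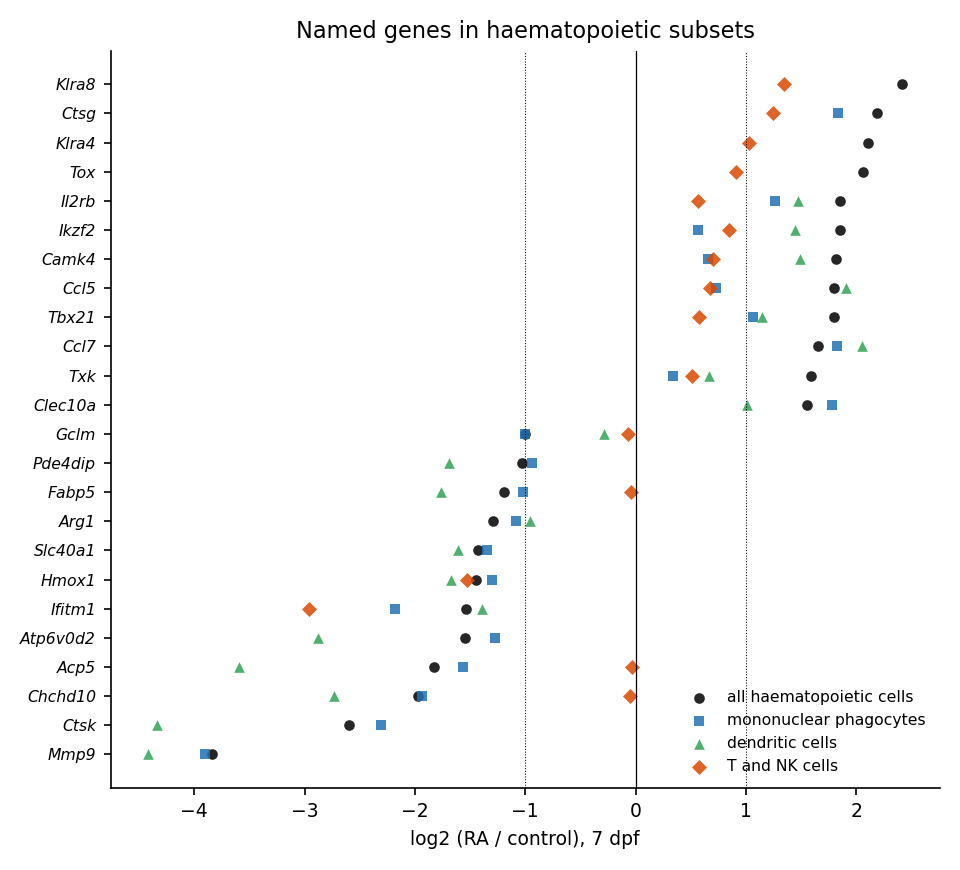
Log2 ratio of RA over control at 7 dpf (horizontal axis) of the 24 haematopoietic genes named by size, for all haematopoietic cells and within the phagocyte, dendritic and T and NK gates, shown where a gene had at least 50 UMIs over both libraries; dotted lines mark a 2-fold difference. *Ccl7*, *Clec10a*, *Hmox1* and *Slc40a1* lie past the fold inside the phagocyte gate, whereas *Il2rb*, *Ikzf2* and *Tbx21* lie nearer to 0 inside the T and NK gate than in the sum.

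Cells that carried both markers touched the haematopoietic sums. Since that gate did not ask for a lack of endothelial genes, 77 of 2813 haematopoietic cells in control_7d (2.74%, 2.17 to 3.41) and 97 of 1926 in RA_7d (5.04%, 4.10 to 6.11) also met the *Pecam1* and *Cdh5* limits, a ratio of 1.84 (1.35 to 2.51), against 2.35% and 2.34% at 4 dpf. With these cells left out, an alternative chosen after the values were seen, 120 of the 163 rises remained past the fold. They were 97 of the 99 own genes, 10 of the 13 mesenchymal genes and 13 of the 51 endothelial genes, and the median of the last fell from 1.23 to 0.53. The endothelial marker list went from a median of 0.62 to −0.35. Scrublet marked 62 haematopoietic cells in either library, and 30 in control_7d and 21 in RA_7d without these cells. The part of doublets in the rises was not tested.

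In endothelial cells 8827 genes were compared, with a median log2 ratio of 0.01. Of these 93 rose (1.05%) and 58 fell (0.657%), 61 and 47 of them own genes. Of the other rises 25 were of genes highest in mesenchymal cells and 7 of genes highest in haematopoietic cells. Among the 12 largest falls of own genes, *Ube2c*, *Cenpf*, *Birc5*, *Tpx2* and *Prc1* serve cell division and *Esm1*, *Apln* and *Igfbp3* mark sprouting or remodelling vessels. For the rises RA_7d had the highest level of the 4 libraries in 87 of 93 and control_7d the lowest in 60, and for the falls RA_7d had the lowest in 47 of 58, counts that again include the libraries used to choose the genes.

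Cell division genes fell in endothelial cells. Of 36 measured members of the cell cycle list 20 fell and none rose, with a median of −1.04 at 7 dpf and 0.06 at 4 dpf, and all 36 lay below 0. Summed over the list the level was 1302 CPM in control_4d, 1352 in RA_4d, 1405 in control_7d and 711 in RA_7d, so RA_7d alone was low. *Ube2c*, the ubiquitin enzyme that starts exit from mitosis, had 52.8, 65.0, 69.2 and 20.6 CPM (−1.70, −1.92 to −1.58). *Cdc20*, which activates the same complex, had 23.4, 25.8, 21.8 and 7.55 CPM (−1.42), and *Prc1*, which bundles microtubules for cytokinesis, 34.7, 47.7, 50.4 and 19.5 CPM (−1.33). *Cenpf*, a kinetochore protein, fell from 41.6 to 14.6 CPM (−1.45), *Birc5*, survivin, from 59.3 to 21.9 CPM (−1.40), *Top2a*, topoisomerase II, from 90.8 to 38.8 CPM (−1.20) and *Mki67* from 53.5 to 23.6 CPM (−1.15). Of the genes of DNA synthesis and replication *Rrm2* (−1.03), *Tyms* (−1.04) and *Mcm5* (−1.06) fell, and *Pcna* (−0.31) and *Ccne2* (−0.15) did not reach the fold. The list had medians of −0.79, −0.75, −0.80 and −0.97 in the capillary and other, venular, arterial and lymphatic gates. When cycling cells were left out, the median was −0.42 with 2 falls. Since *Mki67* and *Top2a* of the list chose the cycling cells, the smaller median without those cells is a description. In haematopoietic cells none of 30 measured members rose or fell (median −0.27), though 27 lay below 0, and *Mki67* had 35.3 and 34.4 CPM. The list as a whole was not summarised in mesenchymal cells, so the fall cannot be called particular to endothelial cells. Of its members, *Cenpa* fell there from 31.5 to 11.4 CPM (−1.39). *Mki67* was at −0.86 in mesenchymal cells, *Tyms* at −0.79 and *Rrm2* at −0.42.

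Promoters of the fallen cell cycle genes are shown because many of them carry the same pair of short motifs, the CHR (TTTGAA) and the CCAAT box (CCAAT), which are known from promoters of genes expressed in G2 and mitosis. The motifs were looked for on both strands between 250 bases before and 50 after each start, after the values were seen. Of the 20 fallen genes 18 matched an entry of the RefSeq promoter table (GRCm38.p6), with 20 windows. Both motifs occurred in 13 of the 20 windows (65%), against 48.7% of 39 windows of the whole list, 4.39% of those of all endothelial genes compared and 6.95% of all 32851 promoter windows. The CHR alone was in 65% and in 17.9% of all windows, and the CCAAT box in 90% and 37.4%. The 150 bases before the start are printed 5′ to 3′ along the gene's strand, for *Ube2c* (chr2:164769779-164769928, plus strand), *Cdc20* (chr4:118437344-118437493, minus strand) and the later start of *Prc1* (chr7:80294326-80294475, plus strand). Capitals mark the 2 motifs on either strand (TTCAAA and ATTGG are their reverse complements). A match is a description of letters and says nothing on binding.
Ube2c: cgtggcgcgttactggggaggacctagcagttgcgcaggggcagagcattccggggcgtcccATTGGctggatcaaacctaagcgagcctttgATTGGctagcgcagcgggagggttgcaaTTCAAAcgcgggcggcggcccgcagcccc
Cdc20: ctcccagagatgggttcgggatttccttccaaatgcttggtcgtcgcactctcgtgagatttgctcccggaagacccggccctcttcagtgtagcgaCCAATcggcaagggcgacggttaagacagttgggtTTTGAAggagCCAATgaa
Prc1: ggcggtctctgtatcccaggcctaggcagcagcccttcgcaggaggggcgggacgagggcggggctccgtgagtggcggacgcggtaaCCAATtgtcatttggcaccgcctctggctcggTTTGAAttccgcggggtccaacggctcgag
In these stretches the CHR match began 29 bases before the start of *Ube2c*, 18 before that of *Cdc20* and 30 before that of *Prc1*. The place was not uniform, since in other windows the only CHR match lay after the start, as for *Cdca8* (13 bases) and *Cenpa* (16 bases).

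**Figure D4:**
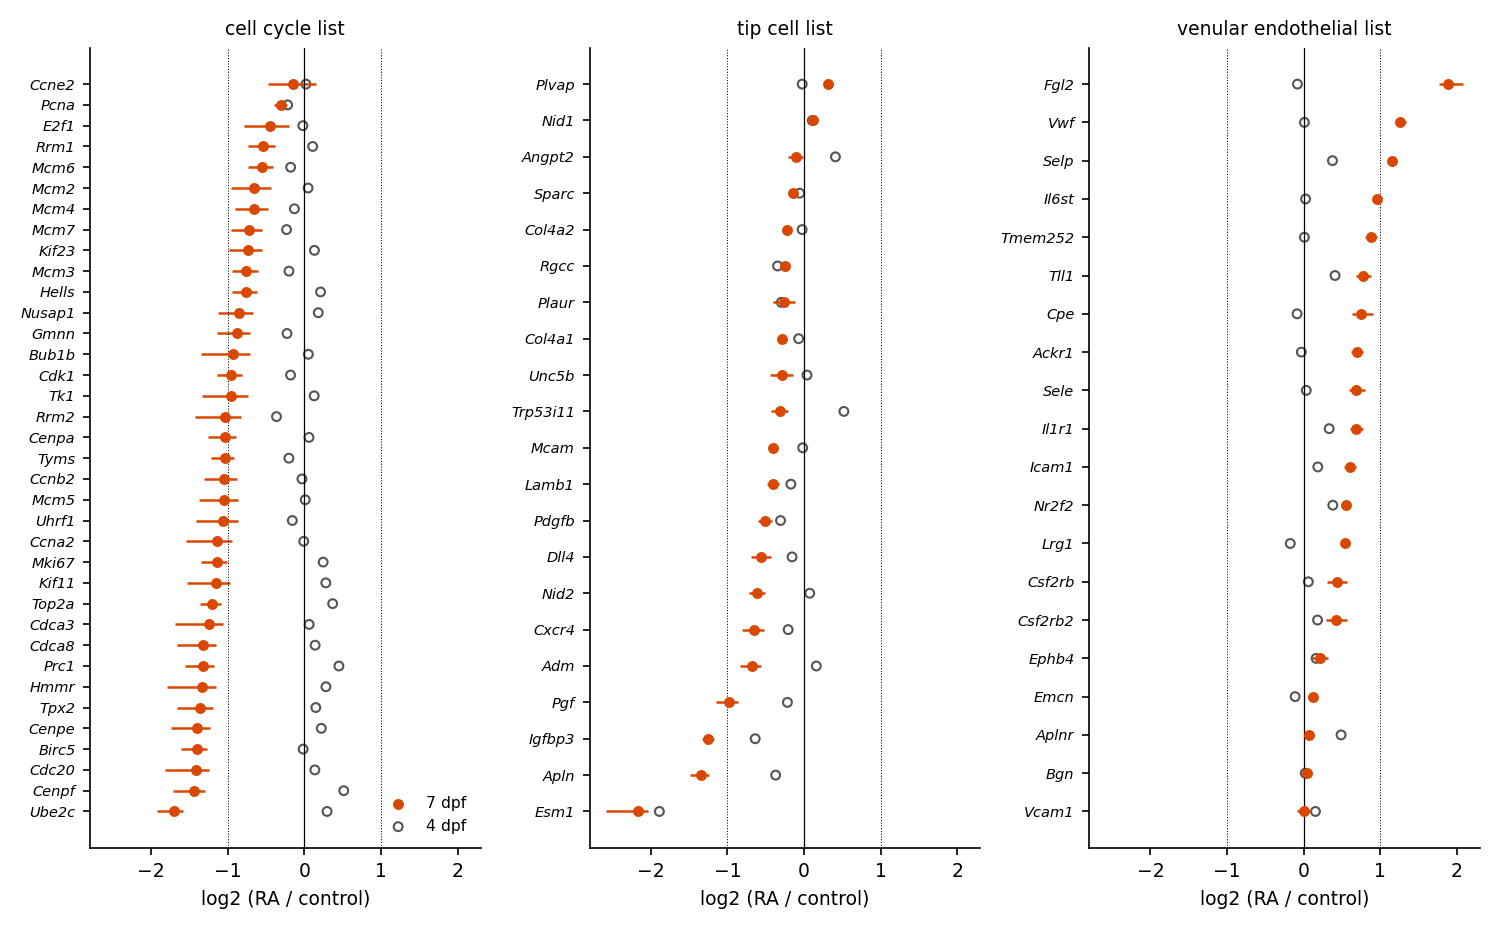
Log2 ratio of RA over control in endothelial cells (horizontal axis) for each measured gene of the cell cycle, tip cell and venular lists, with filled points and 95% counting intervals for 7 dpf and open points for 4 dpf; dotted lines mark a 2-fold difference. At 7 dpf the cell cycle genes all lie below 0 and the venular genes at or above 0, while *Esm1* is low at both times.

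Genes of sprouting vessels fell beside them. *Esm1*, a proteoglycan of tip cells, stood at 48.8 CPM in control_4d, 12.5 in RA_4d, 37.1 in control_7d and 7.497 in RA_7d. RA over control was −2.17 on the log2 scale at 7 dpf (−2.58 to −2.04), and −1.89 at 4 dpf. Both RA libraries lay below both control libraries. *Apln*, a tip cell peptide, had 79.5, 61.3, 103 and 39.9 CPM (−1.34), and *Igfbp3*, a binding protein of growth factors, 181, 116, 243 and 102 CPM (−1.25). These were 3 of 21 measured members of the tip cell list, with a median of −0.40, and *Pgf* at −0.98, *Dll4* at −0.56 and *Plvap* at 0.31 did not reach the fold. *Esm1* differed in all 4 gates, from −1.18 in the venular to −1.89 in the lymphatic gate. An *Esm1* UMI was found in 5.82% of thinned endothelial cells of control_7d and 1.21% of RA_7d, against 0.142% and 0.156% of haematopoietic cells. *Igfbp3* was lower in the arterial gate (568 and 219 CPM, −1.37) and at 39.7 and 43.8 CPM in the venular gate. *Acta2*, smooth muscle actin, had 371 and 83.5 CPM in the arterial gate. In the 4 sums it had 105, 37.9, 148 and 53.6 CPM (−1.45 at 7 dpf and −1.44 at 4 dpf). It is highest in mesenchymal cells, where it fell from 475 to 139 CPM (−1.77). Pericyte and smooth muscle genes summed to 569, 415, 660 and 439 CPM in the endothelial sums. Of 6 measured, 1 fell (*Acta2*), and 4 lay below and 2 above 0. The part of RNA of such cells in the *Acta2* difference was not tested. *Prnd*, the prion-like protein doppel of new vessels, fell from 149 to 59.2 CPM (−1.31) and *AA467197*, a small mitochondrial protein, from 126 to 44.8 CPM (−1.47).

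Genes of venules stood higher in RA_7d. Of 20 measured members of the venular list 3 rose, none fell and none lay below 0, with a median of 0.64 at 7 dpf and 0.05 at 4 dpf. *Selp*, P-selectin, which captures leukocytes and chose some of the venular cells, had 370, 481, 226 and 508 CPM (1.16, 1.11 to 1.22). *Vwf* had 315, 317, 167 and 403 CPM (1.26, 1.203 to 1.34) and *Fgl2*, a prothrombinase, 62.1, 58.7, 27.3 and 104 CPM (1.89, 1.77 to 2.08). In all 3 control_7d stood below the other libraries. The adhesion molecules *Icam1* (147 and 225 CPM, 0.60), *Sele* (71.2 and 115 CPM, 0.69) and *Vcam1* (110 and 111 CPM, 0.00) did not reach the fold, and neither did *Ackr1*, the chemokine-binding receptor of venules (0.69). Inside the venular gate the list had a median of 0.09 and *Selp* stood at 611 and 787 CPM, and inside the lymphatic gate the list had a median of 1.01 with 11 members past the fold. A *Selp* UMI was present in 28.0% of thinned endothelial cells of control_7d and 47.6% of RA_7d, and in 0.747% and 2.39% of haematopoietic cells.

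Other endothelial rises included *Aqp1*, a water channel, at 1019, 1078, 387 and 1226 CPM (1.66, 1.62 to 1.70). It differed in every gate, from 1.07 in the venular to 2.35 in the lymphatic gate. *Lbp*, which carries bacterial lipopolysaccharide, had 89.3, 84.7, 37.2 and 115 CPM (1.61), *Pde7b*, a cyclic AMP phosphodiesterase, 112, 74.1, 46.9 and 134 CPM (1.497), and *Fmo2*, a flavin monooxygenase, 33.0, 51.1, 17.3 and 56.3 CPM (1.65). *Lbp* was highest in mesenchymal cells and *Pde7b* in haematopoietic cells, though both were own genes of endothelial cells. *Cytl1* had 13.04, 26.03, 12.3 and 43.8 CPM (1.75). In each of these genes control_7d was the lowest library, by little for *Cytl1*. Of 12 lymphatic genes 3 rose (*Lyve1*, *Cp* and *Fgl2*, median 0.53), and *Lyve1*, a hyaluronan receptor, stood at 56.5 and 116 CPM in the sums and at 331 and 502 CPM inside the lymphatic gate (0.60). Of 16 genes of cholesterol synthesis 3 fell (*Cyp51* −1.23, *Idi1* −1.12 and *Fdps* −1.08, median −0.48). Of 30 interferon-stimulated genes *Cxcl9* (20.5 and 6.97 CPM, −1.43) and *Cxcl10* (54.5 and 23.2 CPM, −1.20) fell, with a median of −0.08. No member of the 21 arterial, 15 VEGF and angiopoietin receptor and ligand, 18 NF-κB or 18 basement membrane genes measured rose or fell, with medians of −0.07, 0.17, 0.01 and −0.23.

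Complement genes rose in the endothelial sums at levels far below those of mesenchymal cells. *C4b* had 4.83 CPM in control_7d and 28.7 in RA_7d (2.35) and *C3* 22.2 and 95.6 CPM (2.06), and 5 of 10 measured complement genes rose (median 1.04, against −0.65 at 4 dpf). All 5 were highest in mesenchymal cells, in which *C4b* itself stood at 45.3 and 276 CPM. Of 29 mesenchymal marker genes 1 rose and 1 fell in endothelial cells (median 0.14). *Dcn*, a matrix proteoglycan, had 195 and 484 CPM there and *Col3a1*, a collagen chain, 1073 and 1679 CPM. The part of mesenchymal RNA in the complement difference was not tested.

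Some rises were shared by both compartments, and no fall was. Of 7267 genes compared in both, 15 rose in both (0.206%), 0 fell in both (0.0%) and 0 moved past the fold in opposite directions (0.0%). The 15 were 9.20% of the haematopoietic and 16.1% of the endothelial rises, but only 96 of the 163 haematopoietic and 43 of the 93 endothelial rises had enough UMIs to be compared in the other compartment. Both compartments come from the same 2 libraries, so a shared change is not independent evidence. Only 6 of them (*Cp*, *Tox*, *Slco2b1*, *Sult1a1*, *Lrrc1* and *Fhit*) were own genes of both. *Cp*, ceruloplasmin, the copper-carrying ferroxidase, rose from 5.23 to 20.4 CPM in haematopoietic cells (1.78) and from 22.98 to 55.6 CPM in endothelial cells (1.24). *Tox*, a nuclear factor of T and NK cells, rose from 9.21 to 41.7 CPM (2.06) and from 8.56 to 19.9 CPM (1.13). *Slco2b1*, an organic anion transporter, rose from 13.7 to 34.1 CPM (1.26) and from 21.9 to 53.5 CPM (1.25). The other 9 were far higher in another cell type than in at least 1 of the compartments. *Selp* rose from 5.50 to 38.8 CPM in haematopoietic cells (2.61) and *Vwf* from 10.4 to 34.5 CPM (1.64). Without the cells that carried endothelial markers, however, their log2 ratios there were 0.40 and 0.19. *Aqp1* (2.27 to 0.81), *Tgfbr3* (1.44 to 0.74) and *Prkg1* (1.14 to 0.91) then lay below the fold as well. Of the 15 shared rises 10 remained past it in haematopoietic cells. *Ccl8* of phagocytes had 4.97 and 20.4 CPM in endothelial cells (1.85).

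Compartment-specific changes were those past the fold in one compartment and within 0.25 of 0 in the other. Mesenchymal cells had no part in this definition, so a specific change can also occur in them. For haematopoietic cells they were 25 rises (0.344%) and 5 falls (0.0688%), the falls being *Hmox1*, *Fabp5*, *Gclm*, *Cgnl1* and *Pde4dip*. Only 12 of the 25 rises, but all 5 falls, were of own genes of haematopoietic cells. *Hmox1* had 167 and 148 CPM in endothelial cells, and *Fabp5* 522 and 483 CPM. In mesenchymal cells, however, *Fabp5* fell from 257 to 51.4 CPM, further than in haematopoietic cells, though it was not an own gene of mesenchymal cells. *Hmox1*, *Gclm*, *Cgnl1* and *Pde4dip* did not reach the fold in mesenchymal cells. Among the haematopoietic rises were lymphocyte genes that endothelial cells also use, such as *Gimap4* (11.5 and 32.2 CPM, against 89.99 and 84.1 in endothelial cells) and *Gimap6* (36.8 and 97.4 CPM, against 365 and 382), members of a GTPase family of lymphocyte survival. *Gimap6* was not an own gene of haematopoietic cells. Neither was the endothelial marker *Emcn* (17.9 and 44.4 CPM, against 673 and 735 in endothelial cells). The 25 rises were not recounted without the haematopoietic cells that carried endothelial markers. Without those cells only 13 of all 51 haematopoietic rises of genes highest in endothelial cells remained past the fold. For endothelial cells they were 11 rises (0.151%) and 9 falls (0.124%), of which 5 and 8 were of own genes. The rises included *Apoe*, the lipid carrier, at 208 and 467 CPM in endothelial cells and 14142 and 14000.1 CPM in haematopoietic cells. *Ptk2b*, a focal adhesion kinase, had 8.70 and 26.4 CPM, against 84.0 and 89.0 CPM in haematopoietic cells. Neither *Apoe* nor *Ptk2b* was an own gene of endothelial cells. *Hdc*, the histamine-forming enzyme, was an own gene at 5.66 and 25.3 CPM. The falls included *Mki67*, *Incenp*, *Rrm2* and *Tyms*, which serve cell division or DNA synthesis. Another was *Cenpa*, the centromeric histone, at 44.0 and 21.0 CPM in endothelial cells and 69.2 and 74.4 CPM in haematopoietic cells. In mesenchymal cells *Cenpa* fell too, from 31.5 to 11.4 CPM (−1.39). *Mki67* was at −0.86 there, *Tyms* at −0.79, *Incenp* at −0.59 and *Rrm2* at −0.42.

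**Figure D5:**
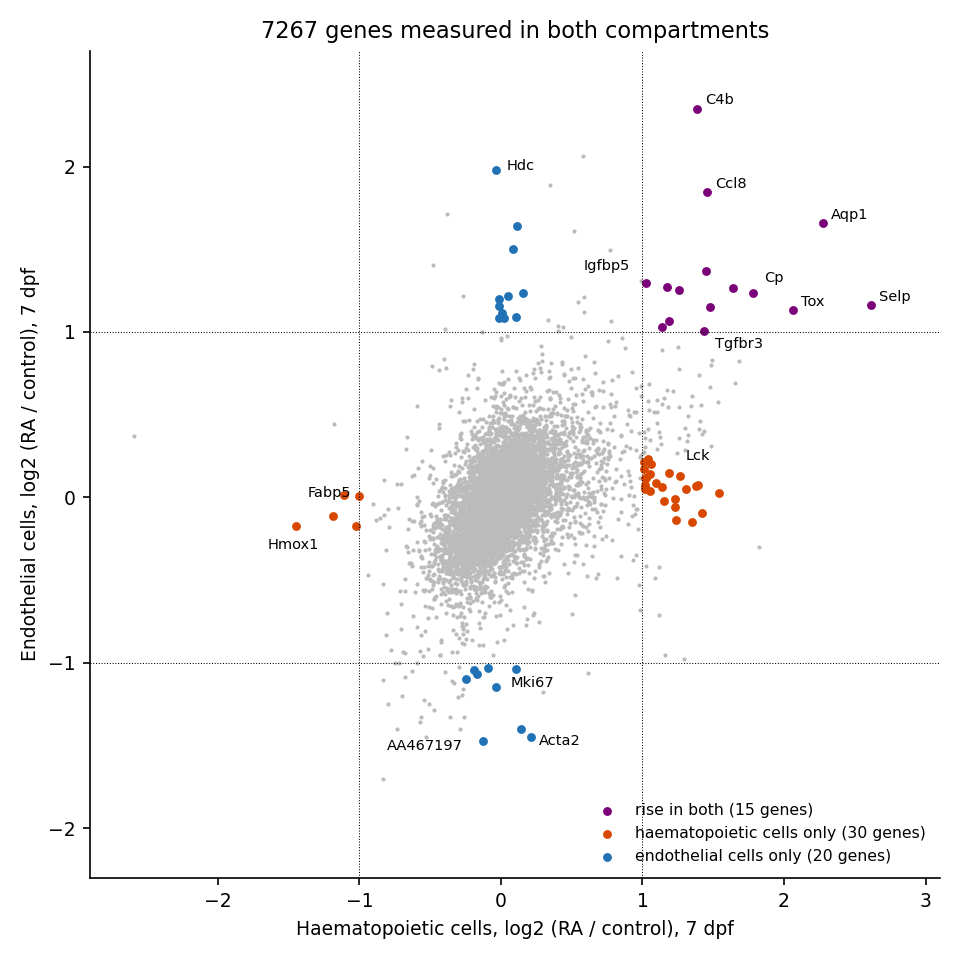
Log2 ratio of RA over control at 7 dpf in haematopoietic cells (horizontal axis) against that in endothelial cells (vertical axis), 1 point for each of the 7267 genes compared in both, with dotted lines at a 2-fold difference and colours for the shared and compartment-specific changes. The 15 shared rises lie in the upper right corner, and the other 3 corners hold no gene.

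Genes of oxidative phosphorylation lay mostly below 0 in both compartments without reaching the fold. The 58 measured members had a median of −0.32 in haematopoietic and −0.31 in endothelial cells, against 0.01 for all genes compared in either, and 1 and 4 of them lay above 0. Genes of glycolysis and the hypoxia response had medians of −0.35 and −0.04, with 6 of 25 and 11 of 27 above 0.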

How the data were processed

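Callus cells of 4 mouse libraries were profiled by single-cell RNA-seq (Chromium Single Cell 3′, v3.1). The authors deposited raw UMI counts per gene and barcode, made with Cell Ranger 7.0.1 on mm10 per the submitters' processing notes, for 32285 genes. Depth was 83405494 to 156567619 UMIs in kept cells per library, with 5470, 7676, 4110 and 8223 kept cells in control_4d, control_7d, RA_4d and RA_7d. Cells with 4000 to 50000 UMIs, 2000 to 7000 genes and at most 8% mitochondrial UMIs were kept, as in the methods of the study. UMIs were summed over the gated cells of a library and scaled to CPM. Genes with a mean of at least 10 CPM over both 7 dpf libraries and at least 50 UMIs were compared, as log2((RA + 1)/(control + 1)). No test between conditions was made, since each has 1 library, and the pool of calluses is not a replicate. Shares have exact Clopper-Pearson intervals and ratios exact conditional intervals, which cover counting error only. The gates were applied to raw UMIs in the order T and NK, dendritic, neutrophil (at least 20 UMIs of *S100a8* and *S100a9*) and phagocyte, and lymphatic, venular and arterial. Named were the 12 largest rises and falls of own genes with at least 20 CPM on average, up to 10 shared and 6 specific genes in each direction, and up to 4 leading members of a list. Other genes were chosen after their values were seen, and gene models with no name were left out of the naming. A result on 1 gene list is not reported here. The members, the gene lists and this rule were chosen with earlier results of these data known. Doublets were called with Scrublet in scanpy 1.11.5 for an alternative only, and in RA_4d it marked 1 cell, so the call did not work there. Alternatives were TMM scaling, a pseudocount of 10 CPM, a filter of 10 UMIs, stricter gates, a looser cell filter and single-cell means. Others were equal weights of subsets, the largest subset alone, the lymphatic gate left out and no thinning. Symbols that name 2 genes (38) were kept apart by their identifier. Python 3.11.15, numpy 2.4.6, scipy 1.17.1, pandas 2.3.3 and matplotlib 3.10.9 were used, and the calculation was tested on simulated data.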

Additional observations from a re-analysis of the deposited data

Results flagged for a closer look

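Among the genes named by size, 1 met a rule for a closer look because it passed the fold in opposite directions at the time points. Over all genes compared, 11 of the 93 endothelial rises were past the fold downwards at 4 dpf and 4 upwards. Of the 163 haematopoietic rises 1 was past it downwards at 4 dpf and 39 upwards. *Hbb-bt*, a β-globin chain of red cells, had 78.7 CPM in control_4d, 0.503 in RA_4d, 22.2 in control_7d and 60.4 in RA_7d in endothelial cells, which is −5.73 on the log2 scale for RA over control at 4 dpf against 1.41 at 7 dpf. With 1 library a side the difference between the time points was not tested. The erythroid marker genes together summed to 866, 22.4, 461 and 879 CPM in the same cells. *Hbb-bt* was highest in haematopoietic cells, where the erythroid genes summed to 694, 38.2, 939 and 701 CPM. RA_4d was thus the lowest library in both compartments. At 7 dpf the 4 measured erythroid genes all lay below 0 in haematopoietic cells (median −0.44). The part of red cell RNA in the endothelial sums was not tested.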

How the results depend on the processing

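No paired analysis was possible because each group has 1 library and the result comes from no test. With a pseudocount of 10 CPM the haematopoietic rises and falls were 56 and 14, the endothelial ones 34 and 13, the shared rises 5, those of haematopoietic cells only 5 and 2 and of endothelial cells only 4 and 3, and the medians of the osteoclast, T and NK and cell cycle lists −0.53, 0.78 and −0.68. With a filter of 10 UMIs the counts were 375 and 66, 193 and 143, 55 shared rises and 5 shared falls, 95 and 16, and 35 and 54, with an osteoclast median of −0.62. With subsets weighted equally the haematopoietic counts were 41 and 35, the endothelial falls 32, shared rises 8 and falls 3, haematopoietic-only 0 and 3 and endothelial-only 7 and 3, and the medians 0.41 for T and NK and 0.32 for venular genes. The medians of the MHC class II and dendritic lists then reversed to −0.48 and −0.016. Of the 163 haematopoietic rises 32 remained past the fold with these weights. Of the genes named by size 43 lay outside their counting interval and 5 within it, as also with a pseudocount of 10 CPM. TMM scaling gave 14 haematopoietic-only rises. Stricter gates gave 4 shared and 8 haematopoietic-only falls, the looser cell filter 35 haematopoietic falls and 1 shared fall, single-cell means an osteoclast median of −0.35 and 1 shared fall, and doublets left out 8 haematopoietic-only and 14 endothelial-only falls. Phagocytes alone gave 77 rises and a T and NK median of 0.18. Leaving out the lymphatic gate gave 72 endothelial rises and 67 falls. Of the named endothelial genes 13 then lay outside their counting interval and 11 within it. Of the alternatives chosen after seeing the data, leaving out cells with at least 20 *Ctsk* UMIs gave an osteoclast median of −0.13 over the members compared there. Leaving out cycling cells gave 27 endothelial falls, a cell cycle median of −0.39 over the members compared there, 9 shared rises, 4 endothelial-only falls and −1.40 for *Ctsg*. Leaving out cells with endothelial markers gave −0.35 for the endothelial markers. The ratio of the share of endothelial cells with an *Hbb-bt* UMI was 1.21 without thinning, the reverse of the thinned value. The causes of these differences were not tested, beyond the fewer or other cells and genes each setting uses. The libraries cannot show differences between mice, and genes under the filter were not compared.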

Other observations

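Genes of the circadian clock stood on average above 0 in endothelial cells without reaching the fold, none of 11 having risen or fallen (median 0.40). Genes of fatty acid handling had 2 of 16 past the fold upwards there (median 0.38). In haematopoietic cells the neutrophil list had 3 rises and 1 fall among 15 genes with a median of −0.06 at 7 dpf and of 2.97 at 4 dpf, in 12 and 8 gated neutrophils at 7 dpf and 11 and 47 at 4 dpf. The fall was that of *Mmp9*, counted in the osteoclast list as well. Lysosome genes had 2 falls of 29 (median −0.20), among them *Ctsk*, which the osteoclast list also counts. None of 13 monocyte genes (median 0.23) or 7 Fcγ receptor genes (median −0.13) rose or fell.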
